A study of Homo sapiens with 12 samples.

Results

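The genes described here are 34 genes of the ATF4 branch of the integrated stress response and of the synthesis of serine, one-carbon units and cysteine. They were taken by gene symbol from a list: ATF4 and 5 further transcription factors, 6 regulators of translation and signalling, 9 enzymes of serine and folate metabolism, 3 of cysteine and glutathione, 5 of asparagine, alanine, proline and phosphoenolpyruvate, 3 secreted or surface proteins, and a pair of genes with other roles (LONP1 and CLIC4). Genes for tRNA synthetases and amino acid transporters were kept off the list and are given apart. Of the 34 genes 31 had a usable probe set and were tested among 12886 genes. GPT2 had no named probe set. ALDH1L2 and MTHFD1L were too dim, with log2 intensities of 3.03 to 4.46 for the 3 probe sets of ALDH1L2 against array medians of 6.23 to 6.27. SHMT1 and MTHFD1L also have brighter probe sets that carry several gene symbols, which were not used.

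Expression was measured on 12 single-colour Affymetrix arrays of MDA-MB-231 (MDA231 in the labels), an established line of triple-negative breast cancer cells. The 4 groups had 3 arrays each: cells with a scrambled hairpin (scramble), the same scrambled-hairpin cells given ETX, cells with a hairpin for CPT1 (shCPT-1) and cells with a hairpin for CPT2 (shCPT-2). The hairpins came in the lentiviral vector pGIPZ, so no group was free of a hairpin. ETX is not spelled out and is read here as etomoxir, a blocker of carnitine palmitoyltransferase 1 (CPT1). That enzyme and CPT2 bring long fatty acids into the mitochondrion, where beta-oxidation breaks them down, and the design asks what changes when this pathway is disturbed. How much ETX the arrayed cells received, and for how long, is not given in the sources used here, nor is the number of hairpins per target, the CPT1 isoform aimed at, or whether a line is 1 clone. The labels do not say whether the arrays of a group are separate cultures, so the p-values rest on the spread between arrays alone, which may be technical.

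When cells are short of amino acids or their endoplasmic reticulum or mitochondria are under stress, kinases phosphorylate the translation factor eIF2. Most protein synthesis then slows, while the messenger RNA of ATF4 is translated better because of short upstream reading frames. ATF4 pairs with C/EBP proteins at composite DNA elements and switches on genes that make and import amino acids, with TRIB3, DDIT3 and PPP1R15A among the genes that later restrain or reset the response. Serine made by PHGDH, PSAT1 and PSPH feeds the folate cycle and, through homocysteine, CBS and CTH, the synthesis of cysteine and glutathione. Arrays read RNA, so the ATF4 values below are transcript levels and not protein.

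The 4 groups could be told by the targeted genes. CPT1A was 3.02-fold lower in shCPT-1 than in scramble (log2 difference -1.59 ± 0.078 SE) and 2.16-fold higher with ETX, and CPT2 was 2-fold lower in shCPT-2 (-1.001 ± 0.099). Of 6 markers chosen for this cell line 5 were above the array median on all 12 arrays, and SPARC was on 4. Of 4 leukocyte markers PTPRC, CD14 and LYZ were above it on no array and CD3E was on all 12. Of 8 luminal and epithelial markers 5 (ESR1, ERBB2, EPCAM, GATA3 and KRT19) were above it on all 12 arrays, FOXA1 on 5, and CDH1 and PGR on none. ESR1 was the dimmest of these 5, at 6.76 to 7.18. Of 4 endothelial markers PECAM1 was above it on all 12, KDR on 8, and VWF and CDH5 on none. Of 5 fibroblast markers COL1A1 was above it on all 12, PDGFRB on 7, DCN on 2, and COL1A2 and LUM on none. The least alike pair of arrays within a group correlated at 0.9954 over all probe sets. The most alike pair from different groups correlated at 0.9955, just above it. The 3′ minus 5′ log2 signal of the beta-actin control probe sets, a sign of RNA or label quality, was 2.07 ± 0.27 (SD, n = 3) in scramble and 1.68 to 1.75 on average in the other groups. Values with this difference as a covariate are given beside the counts below.

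With ETX the genes of this programme were mostly higher. Against scramble 23 of the 31 tested genes rose and 1, ATF5, fell, where 21.9% of all 12886 genes rose and 19.4% fell (41.3% either way). The median log2 change of the 31 genes was 0.58, against -0.013 over all genes. The largest rises were those of CTH, which makes cysteine (4.19-fold), CHAC1, which degrades glutathione (3.24-fold), and ASNS, which makes asparagine (3.21-fold). VLDLR, a lipoprotein receptor, and PCK2, a mitochondrial enzyme that makes phosphoenolpyruvate, also passed 2-fold, at 2.27-fold and 2.06-fold. These folds are those of the brightest probe set of a gene, and other sets of PSAT1 (log2 change 1.39) and SESN2 (1.02) passed 2-fold too. The ETX and scramble arrays did not overlap for 25 of the 31 genes, against 49.5% of all genes.

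The knockdowns moved fewer of these genes and by less. In shCPT-1 17 rose and 2 fell, where 23.1% of all genes rose and 18% fell (41.1% either way), with a median of 0.27 against 0.0075 over all genes. In shCPT-2 11 rose and 4 fell, where 25.6% of all genes rose and 20.5% fell (46.1% either way), with a median of 0.08 against 0.0046. For shCPT-1 the arrays did not overlap with scramble for 21 of 31 genes, and for shCPT-2 for 16, against 51.1% and 52.4% of all genes. In shCPT-2 that count is near the share of all genes, and so are the 48.4% of the 31 genes called either way. By direction 35.5% of them rose and 12.9% fell there. With the actin difference as a covariate the counts of rises and falls were 23 and 1 with ETX, 18 and 1 in shCPT-1, and 13 and 5 in shCPT-2. The genes behind these counts were not all the same. With the covariate ATF5 was no longer called with ETX (adjusted p = 0.0704), nor CEBPB (0.0907), PPP1R15A (0.0673) and PHGDH (0.0952) in shCPT-1, nor ATF4 (0.418) and SESN2 (0.0665) in shCPT-2. STC2, a secreted protein, was then called lower in all 3 comparisons (-0.34, -0.39 and -0.34) and VLDLR in shCPT-2 (-0.32), while SHMT1 was called higher in both knockdowns (0.43 and 0.42), ATF4 in shCPT-1 (0.22), and DDIT3 (0.22) and CEBPG (0.17) in shCPT-2. The part of the actin difference in these changes was not tested. The list was drawn up with results of these arrays known, and all 3 comparisons use the same scramble arrays, so the counts describe the genes and are not independent of one another.

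**Figure D1:**
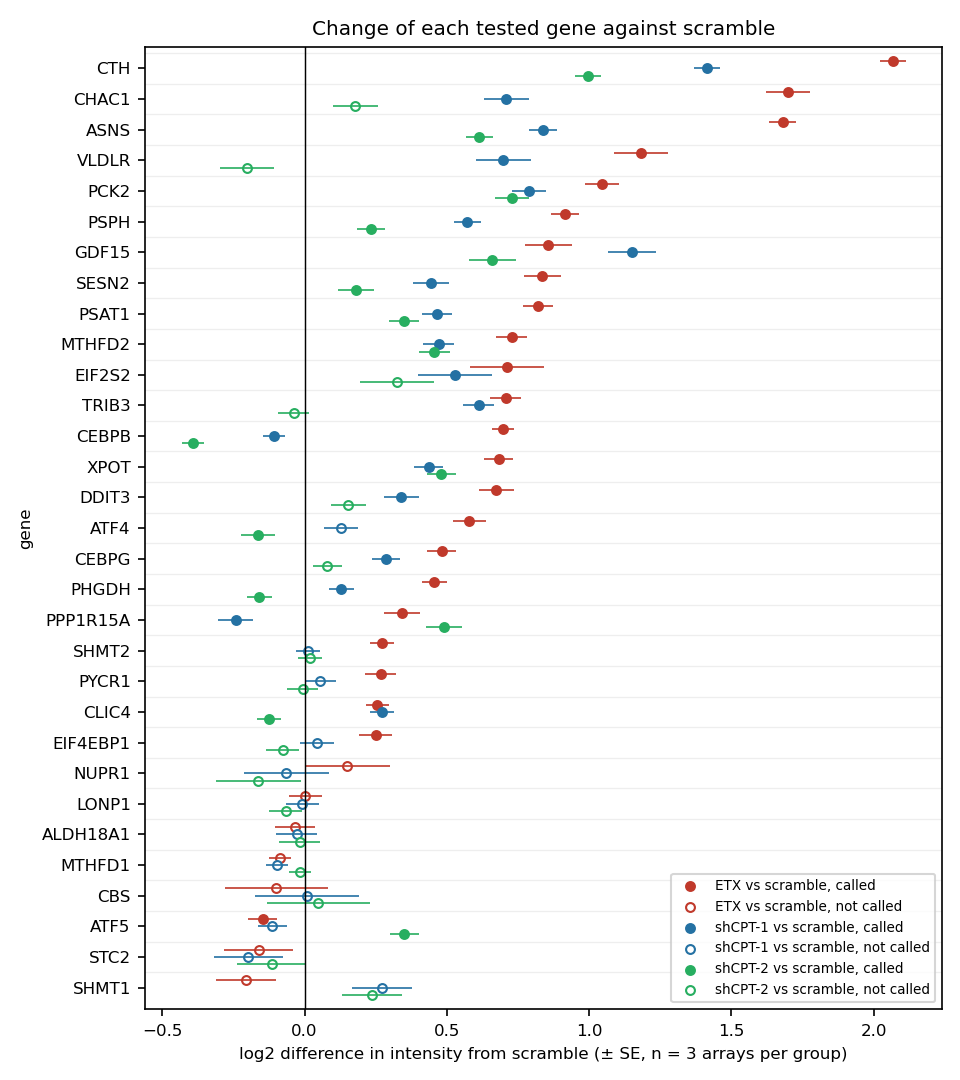
Log2 difference in intensity from scramble (x axis, ± SE of the fit, 3 arrays per group) for the 31 tested genes, sorted by the change with ETX; filled points passed an adjusted p of 0.05 and open points did not. With ETX 23 genes lie to the right of 0 as filled points, and most shCPT-1 and shCPT-2 points lie between the ETX point and 0, or left of 0 for genes such as CEBPB.

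Side by side, and by the probe set used for each, the 31 genes took 9 patterns of calls. The 9 genes that rose in all 3 comparisons were CTH, ASNS, PCK2, PSPH, GDF15, SESN2, PSAT1, MTHFD2 and XPOT. Of these GDF15 passed the brightness filter only through the groups where it was high. Another 6 rose with ETX and in shCPT-1 and were not called in shCPT-2 (CHAC1, VLDLR, EIF2S2, TRIB3, DDIT3 and CEBPG), and 3 were called higher with ETX alone (SHMT2, PYCR1 and EIF4EBP1). CEBPB rose with ETX and fell in both knockdowns, PHGDH and CLIC4 rose with ETX and in shCPT-1 and fell in shCPT-2, and ATF4 rose with ETX and fell in shCPT-2. PPP1R15A rose with ETX and in shCPT-2 and fell in shCPT-1, and ATF5 rose in shCPT-2 and fell with ETX. The other 7 (NUPR1, SHMT1, MTHFD1, CBS, ALDH18A1, STC2 and LONP1) were not called against scramble in any group.

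ATF4 and its C/EBP partners act at an element whose core is TGATGNAA, with N any base. It was searched on both strands in RefSeq promoter windows of 300 bases (250 before a transcript start and 50 after it, GRCh38.p14), and 1217 of 27305 genes (4.46%) held a match in some window. Of the 34 genes 26 had a window, and 4 of these held a match: ASNS, CHAC1, CEBPG and MTHFD1L, the last not tested. The stretches of ASNS and CHAC1 before a start are shown because these genes were among the 3 largest rises with ETX and hold a match, and that of CTH because it rose most and holds none. For CEBPG, whose matching window belongs to the later of its listed starts, 30 bases around the match are shown. Capitals mark the match, each line runs 5′ to 3′ on the strand of the gene, and the sequences are those of RefSeq.
ASNS, chr7:97872409-97872658, minus strand, match TGATGAAA 68 bases before the start: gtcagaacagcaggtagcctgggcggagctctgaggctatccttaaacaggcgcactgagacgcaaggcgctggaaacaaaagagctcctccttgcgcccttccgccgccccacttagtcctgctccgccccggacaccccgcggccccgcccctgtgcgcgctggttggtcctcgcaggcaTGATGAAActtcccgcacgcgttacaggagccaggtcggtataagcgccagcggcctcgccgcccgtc
CHAC1, chr15:40953221-40953470, plus strand, match TTGCATCA (the motif on the other strand) 209 bases before the start: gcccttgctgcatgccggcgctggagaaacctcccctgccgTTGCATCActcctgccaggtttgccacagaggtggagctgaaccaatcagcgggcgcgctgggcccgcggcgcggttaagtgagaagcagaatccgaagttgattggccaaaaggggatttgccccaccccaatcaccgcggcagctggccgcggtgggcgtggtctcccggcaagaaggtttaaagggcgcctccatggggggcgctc
CEBPG, chr19:33374060-33374089, plus strand, match TGATGCAA 42 bases before the start: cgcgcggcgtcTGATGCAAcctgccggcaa
CTH, chr1:70411018-70411267, plus strand, no match: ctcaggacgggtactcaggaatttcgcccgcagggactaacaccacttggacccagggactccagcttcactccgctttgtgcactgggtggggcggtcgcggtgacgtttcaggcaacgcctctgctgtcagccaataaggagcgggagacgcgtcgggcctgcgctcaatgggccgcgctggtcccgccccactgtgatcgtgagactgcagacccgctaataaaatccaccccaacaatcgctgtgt
The match is a description of these letters in this window. It shows no binding, and its lack in the CTH window says nothing about ATF4 at that gene.

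Among the transcription factors ATF4 itself rose with ETX. Its log2 intensity was 12.36, 12.34 and 12.23 in scramble, 12.91, 12.85 and 12.91 with ETX, 12.37, 12.47 and 12.47 in shCPT-1, and 12.06, 12.26 and 12.12 in shCPT-2. The ETX arrays stood above all others, the shCPT-1 arrays lay just above scramble, and the shCPT-2 arrays overlapped with it at the low end. The rise with ETX was 1.49-fold (0.58 ± 0.059, adjusted p = 2.35e-05). In shCPT-1 the difference was 0.13 (95% interval 0.0003 to 0.26, adjusted p = 0.102), or 0.22 with the actin covariate (adjusted p = 0.00896), and in shCPT-2 ATF4 was lower by -0.16 ± 0.059 (adjusted p = 0.0368). That last call is at the edge: it was lost without scramble array 1 or 2 or shCPT-2 array 1 or 3 (-0.12 to -0.15), and with the actin covariate the difference was -0.062 (adjusted p = 0.418).

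CEBPB, a C/EBP partner of ATF4 with roles in inflammation and differentiation, split the treatments. It was 11.97, 11.91 and 11.90 in scramble, 12.62, 12.61 and 12.64 with ETX, 11.84, 11.83 and 11.79 in shCPT-1, and 11.51, 11.53 and 11.57 in shCPT-2. None of the groups overlapped, with ETX above scramble and both knockdowns below it. The rise with ETX was 1.62-fold (0.70 ± 0.040, adjusted p = 2.55e-07) and the fall in shCPT-2 1.31-fold (-0.39 ± 0.040, adjusted p = 6.17e-06). The smaller fall in shCPT-1 (-0.11, adjusted p = 0.045) was lost when any scramble array but 3, any shCPT-1 array, or ETX array 1 or 2 or shCPT-2 array 1 or 3 was left out, at values of -0.088 to -0.12.

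DDIT3, the factor CHOP that promotes cell death in lasting stress, was 8.78, 8.68 and 8.60 in scramble, 9.33, 9.49 and 9.27 with ETX, 9.02, 9.01 and 9.06 in shCPT-1, and 8.82, 8.89 and 8.82 in shCPT-2. The groups did not overlap. The rise was 1.59-fold with ETX (0.67 ± 0.062, adjusted p = 1.18e-05) and 1.27-fold in shCPT-1 (0.34, adjusted p = 0.000823). The difference of 0.15 in shCPT-2 had an adjusted p of 0.0581 and passed the threshold without scramble array 1, ETX array 2 or ETX array 3. CEBPG, a C/EBP protein that pairs with ATF4 and whose matched element is shown above, rose by 0.48 with ETX and 0.29 in shCPT-1, and differed by 0.08 in shCPT-2 (95% interval -0.03 to 0.19). Its second probe set was called higher in all 3 groups, at 0.80, 0.38 and 0.25, and the mean of the sets was called in shCPT-2 too (0.17, adjusted p = 0.0035).

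ATF5, a factor linked to the mitochondrial stress response, went against the other factors. Its arrays read 8.97, 9.06 and 9.07 in scramble, 8.87, 8.86 and 8.93 with ETX, 8.89, 8.87 and 9.005 in shCPT-1, and 9.33, 9.42 and 9.41 in shCPT-2. The shCPT-2 arrays stood above all others, 1.28-fold above scramble (0.35 ± 0.051, adjusted p = 0.000121), and the fall with ETX was small (-0.15, adjusted p = 0.0364). The 4 probe sets of ATF5 did not give the same picture: in shCPT-2 the set used and 1 other gave 0.35 and 0.32, while the remaining sets gave -0.26 and -0.07 and were not called, and their mean gave 0.09. The fall with ETX was lost without scramble array 2 or 3 or ETX array 1 or 2 (-0.13 to -0.14). NUPR1, a small stress-induced nuclear protein, lay near the array medians at 6.21 to 6.93, its groups overlapped in each comparison with scramble, and it differed by 0.15 with ETX (95% interval -0.18 to 0.48).

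All 6 regulators of translation and signalling rose with ETX, by 0.25 to 0.84. TRIB3, a pseudokinase that binds AKT and dampens ATF4, was 9.18, 9.20 and 9.18 in scramble, 9.86, 9.99 and 9.83 with ETX, 9.80, 9.84 and 9.76 in shCPT-1, and 9.05, 9.21 and 9.19 in shCPT-2. The ETX and shCPT-1 arrays lay well above scramble and the shCPT-2 arrays around it. The rises were 1.63-fold (0.71 ± 0.054, adjusted p = 2.91e-06) and 1.53-fold (0.61, adjusted p = 3.01e-06), and the shCPT-2 difference was -0.04 (95% interval -0.16 to 0.08). The direct difference between the knockdowns was -0.65 (adjusted p = 2.49e-06), and shCPT-1 and ETX differed by -0.10 (95% interval -0.21 to 0.02). A second TRIB3 probe set gave smaller rises, 0.42 with ETX and 0.44 in shCPT-1. In shCPT-2 that set gave 0.14 (adjusted p = 0.201, not called). It gave -0.30 between the knockdowns and 0.02 for shCPT-1 against ETX.

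PPP1R15A, which brings a phosphatase to eIF2 and so ends the response, followed an order of its own. It was 10.66, 10.62 and 10.52 in scramble, 10.93, 10.92 and 10.97 with ETX, 10.25, 10.39 and 10.43 in shCPT-1, and 11.01, 11.20 and 11.06 in shCPT-2. The groups did not overlap, with shCPT-1 lowest and shCPT-2 highest. Against scramble it rose 1.27-fold with ETX (0.34 ± 0.063, adjusted p = 0.00121) and 1.40-fold in shCPT-2 (0.49, adjusted p = 4.5e-05) and fell 1.18-fold in shCPT-1 (-0.24, adjusted p = 0.0083). With the actin covariate the fall in shCPT-1 was -0.14 (adjusted p = 0.0673). The knockdowns differed by 0.73 ± 0.063 (adjusted p = 3.21e-06), the largest rise from shCPT-1 to shCPT-2 among the 31 genes.

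SESN2, a leucine sensor that restrains mTORC1, was 7.93, 7.996 and 7.91 in scramble, 8.84, 8.88 and 8.64 with ETX, 8.39, 8.38 and 8.41 in shCPT-1, and 8.04, 8.20 and 8.15 in shCPT-2. The groups did not overlap, with ETX highest and scramble lowest. The rises were 1.79-fold with ETX (0.84, adjusted p = 2.72e-06), 1.36-fold in shCPT-1 and 1.13-fold in shCPT-2 (0.18, adjusted p = 0.0332), the last lost without scramble array 1 or 3 or shCPT-2 array 2 or 3 (0.15 to 0.18). A second SESN2 probe set gave 1.02 with ETX, 0.55 in shCPT-1 and 0.33 in shCPT-2 (adjusted p = 0.00335).

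XPOT, the exporter of tRNAs from the nucleus, rose by 0.68 with ETX, 0.44 in shCPT-1 and 0.48 in shCPT-2, and its arrays overlapped with scramble in none of these groups. Its second probe set rose too in all 3 comparisons but put shCPT-1 above ETX (0.18) where the set used put it below (-0.25). EIF2S2, the beta subunit of eIF2, rose by 0.71 ± 0.13 with ETX and 0.53 in shCPT-1 from scramble arrays that were widely spread (11.63, 11.82 and 12.21). Its second probe set gave only 0.14 with ETX (adjusted p = 0.0364) and 0.11 in shCPT-1 (adjusted p = 0.0871, not called). In shCPT-2 EIF2S2 differed by 0.32 (adjusted p = 0.0591), and was called without scramble array 3 (0.48) or without shCPT-1 array 1 (0.32). EIF4EBP1, a brake on cap-dependent translation, rose with ETX by 0.25 ± 0.059 (adjusted p = 0.00553) and differed by 0.04 in shCPT-1 (95% interval -0.08 to 0.17) and -0.08 in shCPT-2 (-0.21 to 0.05).

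The 3 enzymes of serine synthesis all rose with ETX and in shCPT-1. PSPH, the phosphatase of the last step, was 8.84, 8.89 and 8.81 in scramble, 9.70, 9.79 and 9.79 with ETX, 9.40, 9.44 and 9.41 in shCPT-1, and 9.16, 9.01 and 9.07 in shCPT-2. These groups stood apart, ETX highest and scramble lowest. The rises were 1.89-fold with ETX (0.92 ± 0.049, adjusted p = 1.56e-07), 1.49-fold in shCPT-1 (0.57, adjusted p = 2.21e-06) and 1.18-fold in shCPT-2 (0.23, adjusted p = 0.0017). PSAT1, the aminotransferase of the middle step, was 11.58, 11.73 and 11.74 in scramble, 12.49, 12.57 and 12.44 with ETX, 12.10, 12.16 and 12.18 in shCPT-1, and 12.05, 12.03 and 12.02 in shCPT-2. Its groups too did not overlap, with the knockdowns close together between scramble and ETX. It rose 1.76-fold with ETX (0.82 ± 0.052), 1.38-fold in shCPT-1 and 1.27-fold in shCPT-2. A second PSAT1 probe set gave larger log2 rises of 1.39, 1.04 and 0.78. For PSPH the second set gave 0.69 with ETX and 0.42 in shCPT-1, and 0.16 in shCPT-2, where it was not called (adjusted p = 0.239).

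PHGDH, the enzyme of the first and committed step, moved less and not always with them. It was 8.94, 8.87 and 8.88 in scramble, 9.30, 9.39 and 9.37 with ETX, 9.06, 9.01 and 9.01 in shCPT-1, and 8.70, 8.73 and 8.79 in shCPT-2. The groups did not overlap, and shCPT-2 lay below scramble. The rise with ETX was 1.37-fold (0.46 ± 0.044, adjusted p = 1.71e-05) and the fall in shCPT-2 1.12-fold (-0.16, adjusted p = 0.0104), while the rise in shCPT-1 (0.13, adjusted p = 0.0327) was lost without scramble array 2 or 3 or any shCPT-1 array, at 0.11 to 0.14.

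The 2 mitochondrial folate enzymes that were tested rose with ETX, and the 2 cytosolic ones did not pass the test. MTHFD2, which oxidises the one-carbon unit in mitochondria, was 10.84, 10.87 and 10.99 in scramble, 11.63, 11.72 and 11.54 with ETX, 11.39, 11.35 and 11.37 in shCPT-1, and 11.39, 11.34 and 11.34 in shCPT-2. It rose 1.66-fold with ETX (0.73 ± 0.054, adjusted p = 2.44e-06), 1.39-fold in shCPT-1 and 1.37-fold in shCPT-2. The 2 knockdowns lay at the same height, with a difference of -0.02 (95% interval -0.13 to 0.10). SHMT2, the mitochondrial enzyme that splits serine, rose with ETX by 0.27 ± 0.042 (adjusted p = 0.000435) and differed by 0.01 in shCPT-1 (95% interval -0.08 to 0.11) and 0.02 in shCPT-2 (-0.07 to 0.11). Its 3 probe sets ranged from 0.18 to 0.57 with ETX, the lowest not called, and from -0.20, called lower, to 0.16 in shCPT-1. In shCPT-2 they ranged from -0.07 to 0.27, the highest called (adjusted p = 0.00389).

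SHMT1, the cytosolic counterpart, was dim and had its lowest mean with ETX. It was 6.34, 6.33 and 5.94 in scramble, 5.98, 6.14 and 5.87 with ETX, 6.32, 6.49 and 6.61 in shCPT-1, and 6.42, 6.42 and 6.47 in shCPT-2. It exceeded the array median on 8 of 12 arrays, and its scramble arrays overlapped with those of ETX and shCPT-1. No difference from scramble passed the test (-0.21 with ETX, adjusted p = 0.14). Without scramble array 3 SHMT1 was called lower with ETX (-0.34, adjusted p = 0.00939), and the shCPT-1 difference of 0.27 (adjusted p = 0.0582) was called without scramble array 1 or 2 or shCPT-1 array 1 (0.33 to 0.35). SHMT1 was higher than with ETX in shCPT-1 (0.48 ± 0.11, adjusted p = 0.00291) and in shCPT-2 (0.44, adjusted p = 0.00428). Its ETX arrays all lay below the array medians, so it passed the brightness filter through the other groups, which favours this direction. MTHFD1, the cytosolic enzyme of several folate steps, differed by -0.09 with ETX (95% interval -0.17 to -0.0017, adjusted p = 0.0949) and -0.10 in shCPT-1 (adjusted p = 0.069).

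CTH, which releases cysteine from cystathionine, rose most of the 31 genes with ETX. It was 8.12, 8.01 and 8.09 in scramble, 10.19, 10.12 and 10.12 with ETX, 9.52, 9.49 and 9.45 in shCPT-1, and 9.05, 9.05 and 9.11 in shCPT-2. The 4 groups were far apart compared with the spread within them. It rose 4.19-fold with ETX (2.07 ± 0.045, adjusted p = 7.73e-11), 2.66-fold in shCPT-1 (1.41, adjusted p = 7.19e-10) and 1.99-fold in shCPT-2 (0.996, adjusted p = 7.47e-09). A second probe set gave 1.83 with ETX and 1.28 in shCPT-1. CBS, the enzyme just before CTH on the same route, showed no such change: it lay near the array medians at 5.98 to 6.78 and differed by -0.10 with ETX (95% interval -0.49 to 0.30), with ETX array 3 at 6.78 and the other ETX arrays at 5.99 and 5.98. Without that array CBS was called lower with ETX, at -0.36. The remaining ETX arrays lay below the array medians. CBS then passed the brightness filter through the other groups, which favours this direction.

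CHAC1 degrades glutathione inside the cell. It was 7.17, 7.04 and 7.11 in scramble, 8.88, 8.77 and 8.77 with ETX, 7.84, 7.77 and 7.85 in shCPT-1, and 7.27, 7.48 and 7.12 in shCPT-2. The ETX arrays stood far above, shCPT-1 between, and shCPT-2 overlapped with scramble. The rise was 3.24-fold with ETX (1.70 ± 0.078, adjusted p = 5.46e-08) and 1.64-fold in shCPT-1 (0.71, adjusted p = 1.66e-05). In shCPT-2 the difference was 0.18 (adjusted p = 0.0787), which passed without shCPT-2 array 3 (0.26).

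ASNS, which makes asparagine from aspartate and glutamine, was 9.63, 9.71 and 9.75 in scramble, 11.36, 11.37 and 11.40 with ETX, 10.59, 10.50 and 10.51 in shCPT-1, and 10.28, 10.37 and 10.28 in shCPT-2. The groups did not overlap and kept the order ETX, shCPT-1, shCPT-2, scramble. The rises were 3.21-fold (1.68 ± 0.048, adjusted p = 8.92e-10), 1.79-fold (0.84, adjusted p = 7.59e-08) and 1.53-fold (0.61, adjusted p = 7.06e-07). PCK2 was 7.88, 7.95 and 7.98 in scramble, 8.94, 9.03 and 8.98 with ETX, 8.74, 8.72 and 8.72 in shCPT-1, and 8.54, 8.80 and 8.67 in shCPT-2. The knockdowns overlapped with each other, above scramble and below ETX. PCK2 rose 2.06-fold with ETX (1.05 ± 0.060), 1.73-fold in shCPT-1 (0.79) and 1.66-fold in shCPT-2 (0.73). The proline enzymes moved little. PYCR1, which makes proline in its last step, rose by 0.27 with ETX (adjusted p = 0.00234) and differed by 0.06 and -0.01 in the knockdowns. ALDH18A1, which starts proline synthesis from glutamate, differed by -0.03 with ETX (95% interval -0.19 to 0.12).

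VLDLR was 7.04, 7.28 and 7.11 in scramble, 8.35, 8.41 and 8.21 with ETX, 7.98, 7.69 and 7.85 in shCPT-1, and 7.05, 6.76 and 7.005 in shCPT-2. ETX was highest, shCPT-1 between, and shCPT-2 overlapped with scramble. It rose 2.27-fold with ETX (1.18 ± 0.095, adjusted p = 4.37e-06) and 1.62-fold in shCPT-1 (0.70), and differed by -0.20 in shCPT-2 (adjusted p = 0.102). GDF15, a cytokine secreted by stressed cells that curbs appetite, was 5.70, 5.86 and 5.73 in scramble, 6.503, 6.74 and 6.61 with ETX, 6.93, 6.93 and 6.88 in shCPT-1, and 6.53, 6.22 and 6.51 in shCPT-2. By the probe sets used it was highest in shCPT-1, which no other gene that rose in all 3 comparisons was. The second set of XPOT was highest there too, at 0.65 above scramble against 0.47 with ETX and 0.37 in shCPT-2. The rises of GDF15 were 1.81-fold with ETX (0.86 ± 0.084), 2.22-fold in shCPT-1 (1.15, adjusted p = 6.04e-07) and 1.58-fold in shCPT-2 (0.66). All were measured from scramble arrays that lay below the array medians, where a fold is less certain. GDF15 thus passed the brightness filter through the other groups, which favours a rise. STC2, a secreted glycoprotein induced by stress, lay near the medians and differed by -0.16 with ETX (95% interval -0.43 to 0.10).

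LONP1, a protease of the mitochondrial matrix, differed from scramble by 0.003 with ETX (95% interval -0.12 to 0.13), -0.01 in shCPT-1 and -0.07 in shCPT-2. CLIC4, a chloride channel protein, was 12.17, 12.19 and 12.22 in scramble, 12.40, 12.43 and 12.51 with ETX, 12.49, 12.46 and 12.45 in shCPT-1, and 12.08, 12.07 and 12.05 in shCPT-2. It rose with ETX and in shCPT-1 by 0.26 and 0.27 (SE 0.041), and these groups overlapped with each other. The fall in shCPT-2 (-0.12, adjusted p = 0.0264) was lost without scramble array 2 or 3 or shCPT-2 array 3 (-0.11 to -0.13), and the other probe sets of CLIC4 gave 0.08 and 0.16 there.

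**Figure D2:**
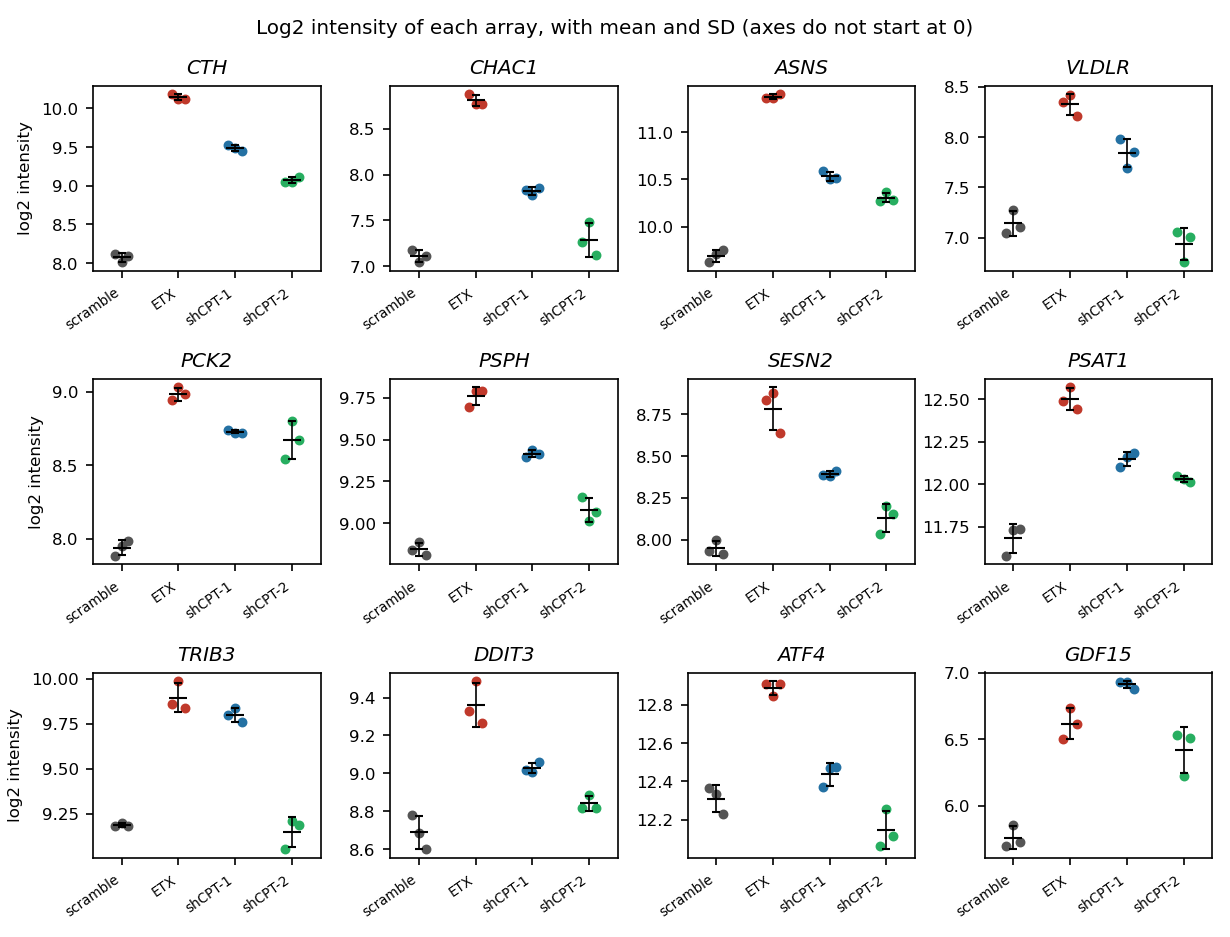
Log2 intensity (y axis, each panel with its own range) on each of the 12 arrays for 12 genes, with the mean and SD of 3 arrays per group. CTH, ASNS, PSPH, SESN2 and PSAT1 fall from ETX to shCPT-1 to shCPT-2 to scramble without overlap, TRIB3 is high with ETX and in shCPT-1 only, and GDF15 is highest in shCPT-1.

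**Figure D3:**
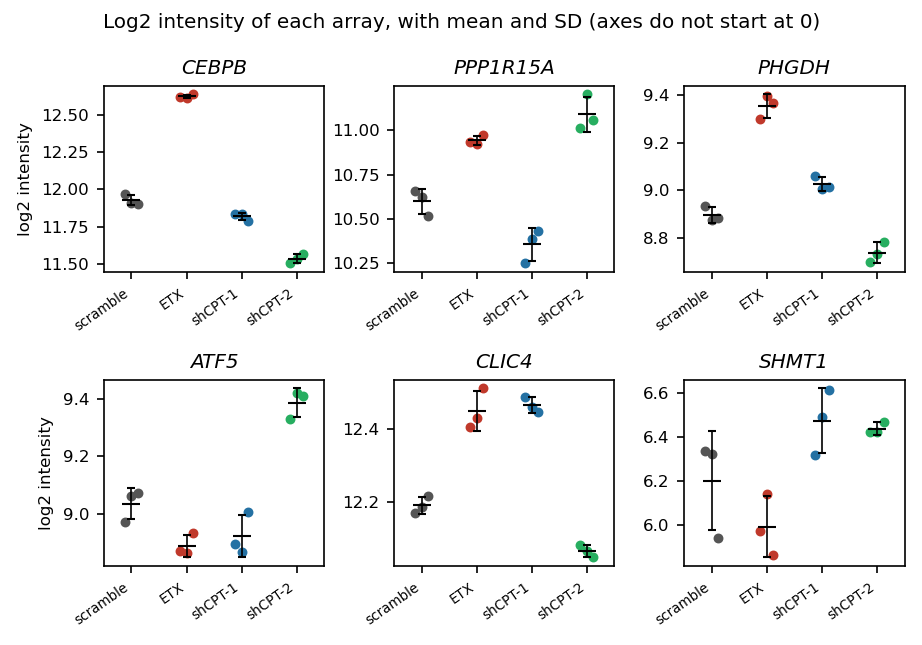
Log2 intensity (y axis, each panel with its own range) on each of the 12 arrays for 6 genes whose groups took other orders, with the mean and SD of 3 arrays per group. CEBPB lies above scramble with ETX and below it in both knockdowns, PPP1R15A is lowest in shCPT-1, ATF5 is highest in shCPT-2, and SHMT1 is lowest with ETX.

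The direct comparisons with ETX show that most of the 23 genes that rose with ETX were lower in the knockdowns. In shCPT-1 19 of the 31 genes were lower than with ETX and 2 were higher, against 19.8% and 22.9% of all genes (42.7% either way), with a median of -0.25 against 0.021 over all genes. By a second probe set PSAT1 (-0.35), PSPH (-0.27) and MTHFD2 (-0.13), which are among the 19, were not called, and XPOT was called higher (0.18). In shCPT-2 21 were lower and 2 higher, against 20.9% and 24.9% of all genes (45.8% either way), with a median of -0.33 against 0.023. By a second probe set EIF2S2 (-0.12), XPOT (-0.10) and MTHFD2 (-0.06), which are among the 21, were not called. The arrays did not overlap with those of ETX for 21 genes in shCPT-1 and 26 in shCPT-2, against 54.3% and 55.8% of all genes. All genes called lower in either comparison were among the 23, a direction that their high ETX arrays favour, since each comparison reuses those arrays.

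CHAC1 differed most from ETX in both knockdowns, by -0.99 ± 0.078 in shCPT-1 (adjusted p = 7.6e-07) and -1.52 in shCPT-2 (adjusted p = 1.67e-08). In shCPT-2 VLDLR (-1.39), CEBPB (-1.09), CTH (-1.07) and ASNS (-1.07) were also at least 2-fold below ETX. ATF4 was lower than with ETX by -0.45 in shCPT-1 (adjusted p = 5.5e-05) and by -0.74 in shCPT-2 (adjusted p = 7.03e-07). Of the 23 genes TRIB3, EIF2S2 and CLIC4 were not called in shCPT-1 against ETX, and GDF15 and PPP1R15A were not in shCPT-2. GDF15 was higher in shCPT-1 than with ETX (0.29 ± 0.084, adjusted p = 0.0128), a call lost without ETX array 1 (0.24). The shCPT-2 call of EIF2S2 (-0.39, adjusted p = 0.028) was lost without any 1 ETX array or shCPT-2 array 1 or 2 (-0.33 to -0.40), and the shCPT-1 call of EIF4EBP1 (-0.21, adjusted p = 0.0137) without shCPT-1 array 2 or 3 (-0.19 in either case).

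**Figure D4:**
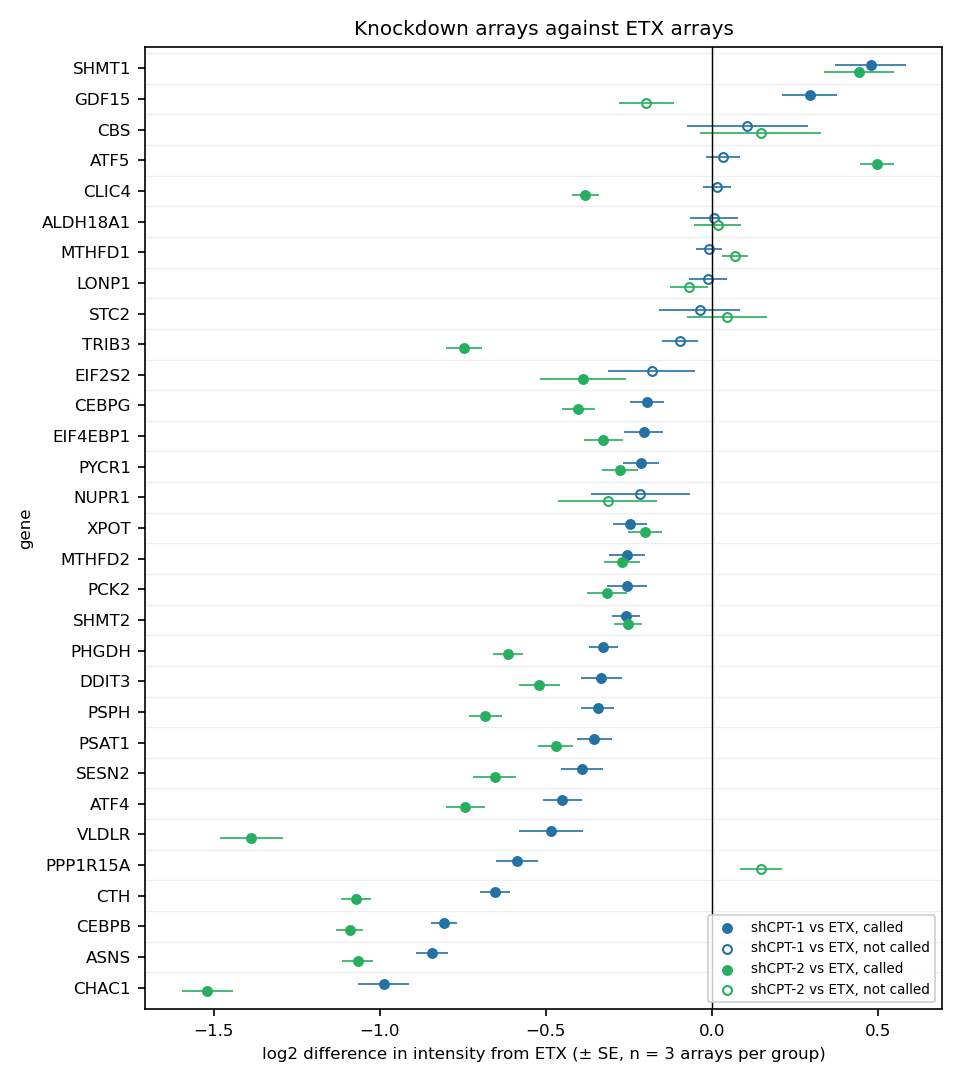
Log2 difference in intensity of the knockdown arrays from the ETX arrays (x axis, ± SE of the fit, 3 arrays per group) for the 31 tested genes; filled points passed an adjusted p of 0.05. Filled points lie left of 0 for 19 genes in shCPT-1 and 21 in shCPT-2, and to the right only for SHMT1 in both, GDF15 in shCPT-1 and ATF5 in shCPT-2.

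Between the knockdowns 14 of the 31 genes were lower in shCPT-2 than in shCPT-1 and 2 were higher, where 17.8% of all genes were lower and 17.7% higher (35.5% either way). The median was -0.12 against 0.0033 over all genes, and 18 genes did not overlap, against 48.6% of all genes. Among the lower genes the largest differences were those of VLDLR (-0.90 ± 0.095, adjusted p = 1.76e-05), TRIB3 (-0.65), CHAC1 (-0.53), GDF15 (-0.49) and CTH (-0.42). The higher genes were PPP1R15A (0.73) and ATF5 (0.46). MTHFD2, PCK2, PSAT1 and XPOT, which rose in both knockdowns, were not called between them, with differences of -0.12 to 0.04. The call of DDIT3 (-0.19, adjusted p = 0.0323) was lost without any 1 shCPT-1 array or shCPT-2 array 1 or 3 (-0.17 to -0.20).

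Over the 31 genes ETX had the highest mean in 22, and the order ETX, shCPT-1, shCPT-2, scramble was met by 11. The spread between arrays was small: the median SD over the 31 genes was 0.039 to 0.070 in the 4 groups, against 0.061 to 0.077 over all genes. Of the 31 genes 26 were above the array median on all 12 arrays. Of 14 genes with several usable probe sets, all sets gave the same call for 12 with ETX (not ATF5 and SHMT2), for 11 in shCPT-1 (not CLIC4, EIF2S2 and SHMT2) and for 9 in shCPT-2 (not CLIC4, CEBPG, ATF5, PSPH and SHMT2). In the direct comparisons they did for 9 in shCPT-1 against ETX (not CLIC4, MTHFD2, PSPH, XPOT and PSAT1). They did for 10 in shCPT-2 against ETX (not MTHFD2, ATF5, EIF2S2 and XPOT) and for 9 between the knockdowns (not CLIC4, CEBPG, ATF5, PSPH and XPOT).

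The genes around this core were taken from 9 lists written from general knowledge, but with earlier results of these data known. Their counts are to be read against the shares of all genes called higher and lower, which were 21.9% and 19.4% with ETX, 23.1% and 18% in shCPT-1, and 25.6% and 20.5% in shCPT-2. The cytosolic tRNA synthetases, which load amino acids onto tRNAs and include known ATF4 targets, had 13 of 17 higher and 3 lower with ETX, 9 and 2 in shCPT-1, and 10 and 1 in shCPT-2, with medians of 0.40, 0.14 and 0.24. The share that fell with ETX, 17.6%, was near that of all genes, and the share that rose was 76.5%. SARS1 for serine (0.98 ± 0.091) and WARS1 for tryptophan (0.75 ± 0.052) changed most with ETX, and KARS1 for lysine fell with ETX (-0.15) and rose in shCPT-2 (0.24). Of 9 amino acid transporters 8 rose and 1 fell with ETX, against 3 and 2 in shCPT-1 and 6 and 2 in shCPT-2, with medians of 0.52, 0.11 and 0.27. SLC7A11, which imports cystine, rose by 1.32 ± 0.047 with ETX and by 0.19 and 0.29 in the knockdowns, and SLC1A4, which carries serine and alanine, rose by 0.95 with ETX and differed by 0.03 and 0.10 in them. SLC38A2, a carrier of small neutral amino acids, rose with ETX (0.28) and fell in shCPT-1 (-0.23) and shCPT-2 (-0.37).

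For the kinases and factors that lead to ATF4 the counts with ETX were near those of all genes: 23.5% of 17 genes rose and 17.6% fell, against 21.9% and 19.4%. In numbers 4 rose and 3 fell with ETX, 5 and 3 in shCPT-1, and 7 and 4 in shCPT-2, with medians of -0.014, -0.024 and 0.13. EIF2AK3, the eIF2 kinase of the endoplasmic reticulum known as PERK, rose by 0.58, 0.53 and 0.60 (SE 0.066), and PPP1R15B, the constant partner of the eIF2 phosphatase, by 0.46 with ETX. OMA1, a mitochondrial protease that passes mitochondrial stress on to eIF2, fell with ETX (-0.23 ± 0.076, adjusted p = 0.030) and rose in shCPT-1 (0.23, adjusted p = 0.027).

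Of 19 other genes linked to ATF4, 7 rose and 4 fell with ETX, 7 rose and 8 fell in shCPT-1, and 3 rose and 8 fell in shCPT-2, with medians of 0.028, 0.0020 and -0.12. The shares were 36.8% and 21.1% with ETX, 36.8% and 42.1% in shCPT-1, and 15.8% and 42.1% in shCPT-2, against 21.9% and 19.4%, 23.1% and 18%, and 25.6% and 20.5% of all genes. The repressors JDP2 (1.41, 0.87 and 0.56) and ATF3 (1.05, 0.62 and 0.43) rose in all 3. DDIT4, an mTORC1 inhibitor, rose with ETX (0.74 ± 0.084) and in shCPT-1 (1.15) and fell in shCPT-2 (-1.76, adjusted p = 1.1e-08). NIBAN1, a stress protein, rose with ETX (0.30) and fell in the knockdowns (-0.15 and -0.14), and ERO1A, an oxidase of the endoplasmic reticulum, fell with ETX (-0.19) and rose in shCPT-1 (0.31).

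Next to CTH and CHAC1, 8 other genes of cysteine and glutathione gave 3 rises and 3 falls with ETX, 3 and 1 in shCPT-1, and 2 and 1 in shCPT-2, with medians of -0.0024, -0.023 and 0.084. With 8 genes these are few, and the 25% that rose in shCPT-2 is near the 25.6% of all genes. The subunits of the enzyme that starts glutathione synthesis, GCLM (0.90 ± 0.10) and GCLC (0.78 ± 0.074), rose with ETX and differed by -0.01 and -0.06 in shCPT-1, and MPST, a sulfur transferase, fell with ETX (-0.17) and rose in shCPT-1 (0.18). Of 13 other one-carbon genes 3 rose with ETX and none fell, while 7 rose in shCPT-1 and 6 in shCPT-2 with 1 fall in each, and the medians were 0.037, 0.18 and 0.089. The share that rose with ETX, 23.1%, was near the 21.9% of all genes, and in the knockdowns it was 53.8% and 46.2% against 23.1% and 25.6%. GART, of purine synthesis, rose by 0.40, 0.42 and 0.47, and MTHFD2L, a relative of MTHFD2, rose by 0.39 with ETX and differed by 0.10 and 0.06 in the knockdowns. Of 8 other genes of proline and glutamate 1 rose and 1 fell with ETX, 2 and 2 in shCPT-1, and 2 and 3 in shCPT-2, with medians of 0.0055, 0.0078 and 0.047. The 12.5% in either direction with ETX lie below the shares of all genes. OAT, which links ornithine to proline, rose by 0.43, 0.64 and 0.73, and GLUD1, glutamate dehydrogenase, fell in all 3 (-0.29, -0.31 and -0.59).

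Of 15 chaperones and response genes of the endoplasmic reticulum 10 rose and none fell with ETX, 5 rose and 5 fell in shCPT-1, and 3 rose and 8 fell in shCPT-2, with medians of 0.27, 0.027 and -0.16. The shares were 66.7% and 0% with ETX, 33.3% and 33.3% in shCPT-1, and 20% and 53.3% in shCPT-2, against 21.9% and 19.4%, 23.1% and 18%, and 25.6% and 20.5% of all genes, and the difference between groups over the list was not tested. DNAJB9, a co-chaperone, rose with ETX (1.09 ± 0.063) and fell in shCPT-2 (-0.41), as did DNAJC3 (0.33 and -0.42) and SDF2L1 (0.19 and -0.16), while XBP1, a factor of the unfolded protein response, rose by 1.04 with ETX and 0.47 in shCPT-1. Of 10 mitochondrial chaperones and proteases 5 rose and 2 fell with ETX, 2 and 1 in shCPT-1, and 8 and 1 in shCPT-2, with medians of 0.15, 0.090 and 0.24. In shCPT-1 the 20% and 10% lie below the shares of all genes. HSPE1, the small chaperonin, rose by 0.25, 0.21 and 0.43, and DNAJA3, a co-chaperone, by 0.22 with ETX and 0.32 in shCPT-2. TRAP1, a chaperone of the HSP90 family, fell with ETX (-0.18) and rose in shCPT-2 (0.23), and AFG3L2, a protease of the inner membrane, fell with ETX (-0.13) and rose in shCPT-1 (0.29) and shCPT-2 (0.48).

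**Figure D5:**
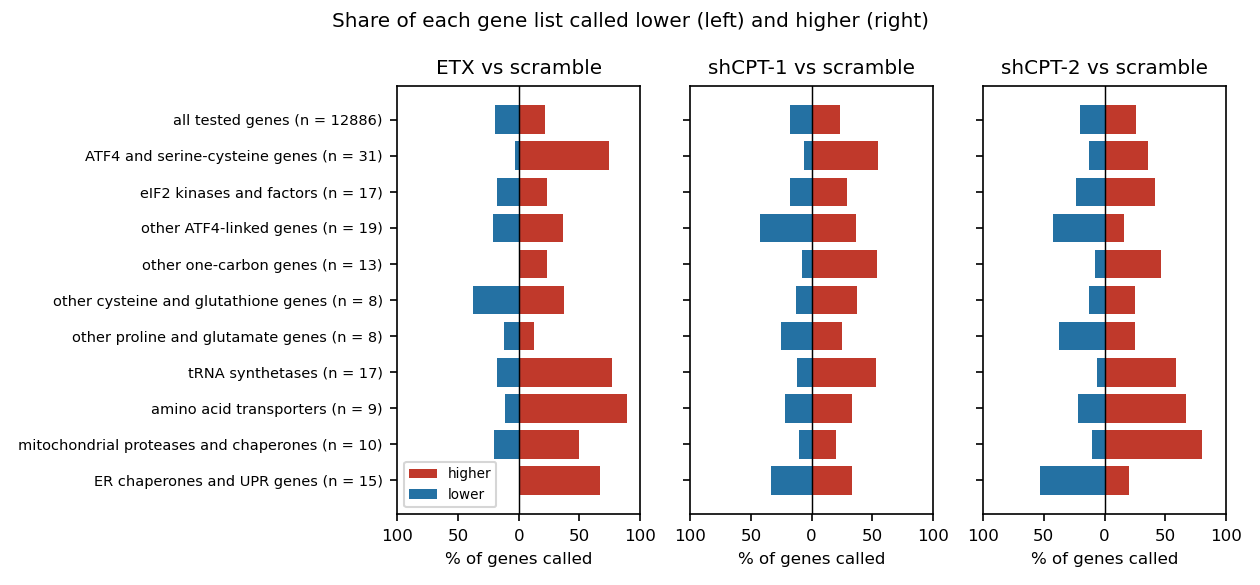
Share of genes called lower (blue, left) and higher (red, right) against scramble, in percent (x axis), for all 12886 tested genes, the 31 genes and the 9 lists, with 1 panel for ETX, shCPT-1 and shCPT-2 each. With ETX the red bars of the 31 genes, the tRNA synthetases, the transporters and the endoplasmic reticulum genes pass 50 percent, while that of all genes is at 21.9 percent.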

How the data were processed

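Biotin-labelled total RNA was hybridised to single-colour Affymetrix arrays, per the labels. The authors deposited linear intensities, a value for each probe set on each array, made with RMA (background correction, between-array normalization, probe summary) per the submitters' processing notes. The version and settings of RMA are not given in the sources used. Every array column was matched to a sample by its labels.

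Log2 intensity was analysed. Of 54675 probe sets 41091 carried 1 gene symbol in the platform annotation, 1801 several and 11721 none, and 62 were controls. The filter asked for a signal above the array median on 3 or more arrays and kept 28628 sets (23564 with 1 symbol). The brightest kept set of each gene stood for it, giving 12886 genes. Comparisons were fitted in limma 3.58.1 by lmFit and eBayes without covariates, all 12 arrays sharing the spread (residual degrees of freedom 8, prior 4.12). R was version 4.3.3 and data.table version 1.17.8. Tests were two-sided. A gene was called, and said to rise or fall, at a Benjamini-Hochberg adjusted p under 0.05 over all genes of a comparison. Since 3 arrays against 3 allow no exact permutation p under 0.1, single genes got no such test. Intervals are 95% and come from the same fit. Precision is limited by the number of arrays.

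The 34 genes, the 9 further lists and the motif were chosen with earlier results of these data known, so no test over a list was made. All 34 genes were named. Of each further list the 2 genes with the largest called change with ETX were named, and those called in opposite directions with ETX and in a knockdown. Promoter sequences are from RefSeq (GRCh38.p14). Alternatives were other filters, probe set rules, scalings, limma settings, a replicate block, the actin control as a covariate, and leaving out each array. The fit was tested on simulated data made from the scramble means of 12886 genes, with genes shifted in the ETX group. It recovered 87 of 100 genes given a shift of 0.5 (log2) and 98 of 100 given a shift of 1, and called 13 of 12686 genes given none. The simulated noise was normal and independent between arrays and genes. Far fewer genes were shifted than were called on the real arrays, so these counts need not hold for the real arrays. Figures were drawn in matplotlib 3.10.9 and the motif was searched in Python 3.11.15, with pandas 2.3.3 and numpy 2.4.6.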

Additional observations from a re-analysis of the deposited data

How the results depend on the processing

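The count of rises with ETX was 23 without any 1 array, that in shCPT-1 was 16 to 18 (main 17) and that in shCPT-2 10 to 12 (main 11). Under the other settings rises with ETX stayed at 23. Those in shCPT-1 were 16 to 19, the highest with array weights. Those in shCPT-2 were 10 to 14, the highest with array weights and with arrays centred on the median. The small counts of falls moved more: without 1 array each, 0 to 2 with ETX (main 1), 1 to 2 in shCPT-1 (main 2) and 2 to 5 in shCPT-2 (main 4), and 1 to 3 genes were higher in shCPT-1 than with ETX (main 2). Falls with ETX numbered 3 with array weights, 2 with a trended and robust fit or quantile normalization again, and 0 with arrays centred on the median, a filter at the 25th percentile, no filter, the mean of the probe sets or only the groups compared. Falls in shCPT-1 numbered 4 with array weights and 1 with the actin covariate, centring, the 25th percentile filter, no filter, only the groups compared or the replicate block. Falls in shCPT-2 numbered 8 with array weights and 2 with centring, no filter or only the groups compared. Array weights also gave 5 genes higher in shCPT-2 than with ETX (main 2) and 7469 calls over all genes between the knockdowns (main 4575). No setting moved the median of all genes by more than 0.03.

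Signs turned with the choice of probe set. For ATF5 other sets gave 0.024 with ETX, -0.26 and -0.068 in shCPT-2, -0.093 for shCPT-2 against ETX and -0.033 for shCPT-2 against shCPT-1. For CLIC4 they gave 0.083 and 0.16 in shCPT-2 (0.039 for the mean of the sets) and -0.29 for shCPT-1 against ETX (-0.18 for the mean). For SHMT2 a set gave -0.20 in shCPT-1, and for XPOT a set gave 0.18 for shCPT-1 against ETX and -0.28 for shCPT-2 against shCPT-1. For TRIB3 the other set gave 0.14 in shCPT-2 and 0.02 for shCPT-1 against ETX, where neither set was called. The causes were not tested.

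Replicate numbers were not used to pair the arrays in the main fit. Deviations of arrays with the same number correlated at -0.46 to 0.33. For ETX against scramble they correlated at 0.09, 0.28 and 0.33, and 2 of the 3 numbers correlated best with their own. With 3 arrays a group this cannot settle whether the arrays were paired. With the replicate block 23 genes rose and 1 fell with ETX, 16 and 1 in shCPT-1, 11 and 3 in shCPT-2; 2 were higher and 19 lower in shCPT-1 than with ETX, 2 and 21 in shCPT-2 than with ETX, and 2 and 14 in shCPT-2 than in shCPT-1. In no comparison did all 3 numbers correlate best with their own.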

Other observations

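Among the 19 further genes linked to ATF4, 6 were at least 2-fold lower in shCPT-2 than in scramble, and none was in the other groups. Besides DDIT4 these were VEGFA, the vascular growth factor (-2.30 ± 0.11, adjusted p = 1.3e-08), TRIB2, a pseudokinase (-1.84 ± 0.080), SESN3, a stress protein (-1.40 ± 0.12), NDRG1, a stress gene that responds to low oxygen (-1.39 ± 0.086), and CEBPD, a C/EBP factor (-1.10 ± 0.064). With ETX VEGFA differed by 0.01, SESN3 by 0.25 and NDRG1 by 0.03, while TRIB2 (-0.35) and CEBPD (-0.19) fell. In shCPT-1 8 of the 19 genes fell, and the lowest change of the list was -0.495. These genes were singled out after their values were seen. The share of all genes at least 2-fold lower in shCPT-2 is not given here, so the 6 of 19 cannot be read against it.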
